A study of Mus musculus with 15 samples.

Results

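The transcripts described here are 10 RNAs known for staying in the nucleus or for holding introns back there: the long non-coding RNAs Malat1 and Neat1 and the mRNAs of Clk1, Clk4, Ccnl1, Ccnl2, Arglu1, Srsf5, Rbm39 and Son. They were found in the count table by their gene symbols. All 10 of 10 symbols were present among 24034 gene lines, and all 10 were among the 13662 genes with enough reads to be tested. The set had been drawn up from values of these data, as nuclear-retained RNAs seen higher in ENG+FDG+ than in ENG+FDG- HEI libraries of replicates 2 and 3. That one comparison is therefore given as a description with no test, and so are the other comparisons between HEI fractions, which share those libraries. The comparisons that do not use that contrast are tested, though those between replicate numbers include the same libraries.

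The libraries were made by RNA sequencing of mouse embryonic stem (ES) cells that carried a reporter of the Endoglin gene (Eng) and had been differentiated and sorted. Each of 5 groups had 3 libraries, numbered replicates 1 to 3 in the labels. In 3 groups, labelled HEI, the reporter joined the Eng promoter to its -8 kb enhancer, and cells were sorted for surface ENG and for FDG, a fluorogenic substrate of the LacZ enzyme: ENG+FDG+, ENG-FDG+ and ENG+FDG-. In the other 2 groups, FLK1+ LacZ+ and FLK1+ LacZ-, the promoter was joined to the -8, +7 and +9 kb enhancers, and FLK1+ cells were sorted by LacZ activity. A reporter in ES cell lines was thus common to all groups. Per the study's design text, the -8 kb construct was aimed at haemogenic endothelium, endothelial cells that give rise to blood, and the construct with all enhancers at FLK1+ mesoderm. The labels give neither the ES cell strain, nor the number of clones, nor the day of sorting, and they do not spell out HEI. The reporter construct and the stage of differentiation changed together and cannot be told apart.

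Malat1 and Neat1 are neighbouring long non-coding RNAs. Malat1 is one of the most abundant nuclear RNAs and gathers in nuclear speckles, the stores of splicing factors, while the long form of Neat1 is the scaffold around which paraspeckles form. Many mRNAs that encode the splicing machinery itself are kept partly in the nucleus with one or more introns still in place (detained introns), and kinases of the CLK family are known to set how far such introns are removed. Counts per gene cannot show this, because they do not separate reads in introns, spliced reads, nuclear RNA and cytoplasmic RNA. The values below are counts per gene and need not stand for all RNA of a gene. The sources used here do not say how far reads in introns were counted.

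Malat1 and Neat1 lack the poly(A) tail of an ordinary mRNA at their long form's end. A triple helix built from 2 U-rich runs and an A-rich run protects that end, and the 2 ends are shown because this element is the textbook basis of the stability of both RNAs. They were read from GENCODE M21 transcripts of build GRCm38, 5′ to 3′ along the RNA (minus strand, T for U), with the 2 U-rich runs and the A-rich run in capitals. The Malat1 stretch is 86 bases at chr19:5795982-5796067, and the Neat1 stretch is 90 bases at chr19:5824708-5824797.
Malat1: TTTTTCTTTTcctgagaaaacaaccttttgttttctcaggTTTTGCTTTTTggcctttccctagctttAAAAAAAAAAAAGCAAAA
Neat1: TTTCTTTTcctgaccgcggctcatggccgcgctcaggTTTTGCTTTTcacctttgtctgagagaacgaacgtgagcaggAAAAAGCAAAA
The annotated Neat1 transcript ends with this A-rich run, whereas 292 annotated bases follow it in Malat1. Both genes are annotated as a single exon in their longest transcript, of 6983 bases for Malat1 (chr19:5795690-5802672) and 20771 bases for Neat1 (chr19:5824708-5845478).

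Library totals ran from 9673396 to 16337785 counts, so sampling error was small for 9 of the 10 transcripts and larger for Neat1. The 5 replicate 1 libraries stood apart from the 10 libraries of replicates 2 and 3. Ribosomal protein genes took 7.25% to 13.1% of their counts, against 2.66% to 3.59% in replicates 2 and 3, and Rn45s, the ribosomal RNA precursor, took 1.40% to 3.56% against 0.524% to 0.784%. The comparisons between groups below are therefore given over all replicates and in replicates 2 and 3, whereas the likeness of profiles includes replicate 1. Eng, the gene of the sorted marker ENG, had 180 to 962 CPM (counts scaled to library size by the trimmed mean of M values, TMM) in the ENG+ HEI libraries, against 39.4 to 161 CPM in the ENG-FDG+ libraries and 20.5 to 85.2 CPM in FLK1+ libraries, with the lowest ENG+ value above the highest ENG- value. Kdr, the gene of the sorted marker FLK1, was no higher in the fraction sorted on it: it had 770 to 1036 CPM in the ENG+ HEI libraries and 404 to 671 CPM in ENG-FDG+ libraries, against 319 to 715 CPM in FLK1+ libraries. Summed over 8 endothelial markers, the level was 4161 to 6518 CPM in the ENG+ HEI libraries, 2158 to 2593 CPM in ENG-FDG+ libraries and 385 to 780 CPM in FLK1+ libraries. In bulk libraries such as these, fewer cells of a type and less RNA per cell cannot be told apart.

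Per length, the 10 transcripts covered a wide range. Over the 15 libraries Malat1 averaged 772 CPM per kb of its longest transcript, followed by Srsf5 at 216, Rbm39 at 150, Son at 56.6, Arglu1 at 38.7, Clk1 at 37.0, Clk4 at 27.1, Ccnl1 at 25.9 and Ccnl2 at 25.6 CPM per kb. Neat1 was lowest at 0.480 CPM per kb. The longest annotated transcript need not be the form present: it has 3 exons for Clk4 and Arglu1 and 4 for Srsf5. Close places in this order may change with another length. In the 10 libraries of replicates 2 and 3 Clk1 stood above Arglu1, at 44.8 and 36.8 CPM per kb, and the other places in the order were as over all 15. Malat1 alone took 1.28% and 1.08% of all counts in the ENG+FDG+ libraries of replicates 2 and 3, against 0.446% to 0.626% in the other replicate 2 and 3 libraries. In replicate 1 it took 0.225% to 0.318%.

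**Figure D1:**
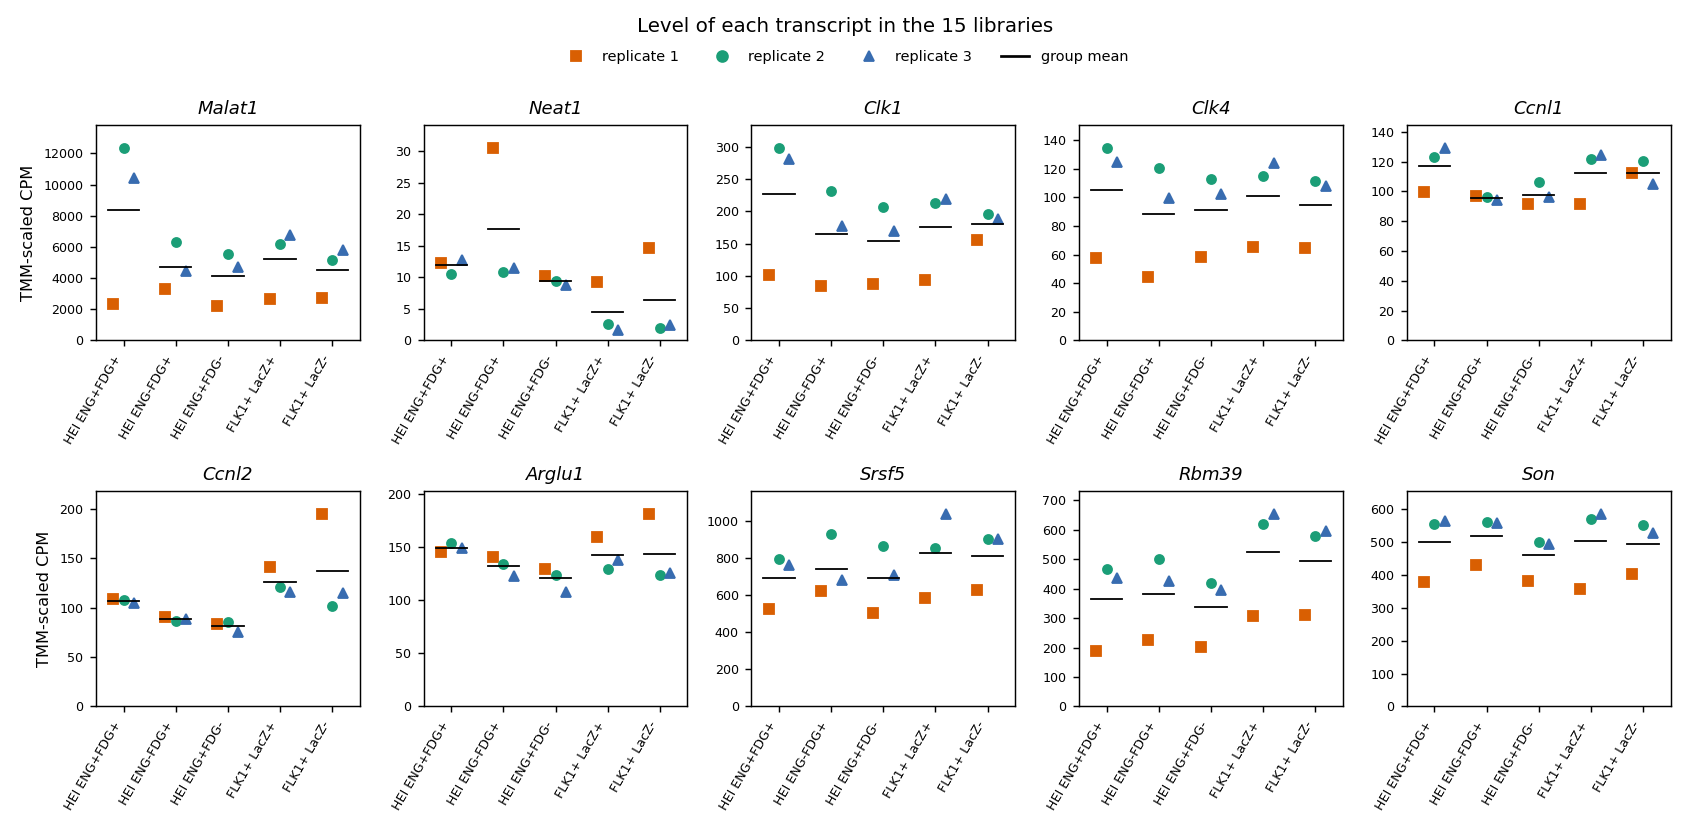
Level of each of the 10 transcripts (TMM-scaled CPM, linear axes starting at 0) in the 15 libraries, by group, with 1 mark per library and a line at the group mean (n = 3). Malat1 and Clk1 are highest in the ENG+FDG+ libraries of replicates 2 and 3, the replicate 1 marks (squares) lie lowest in every group for Malat1, Clk1, Clk4, Srsf5, Rbm39 and Son, and Neat1 is below 3 CPM in the FLK1+ libraries of replicates 2 and 3.

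Malat1 was at 2358, 12333 and 10417 CPM in replicates 1 to 3 of ENG+FDG+ cells. It was at 3285, 6303 and 4464 CPM in ENG-FDG+ cells and at 2234, 5549.8 and 4686 CPM in ENG+FDG- cells. FLK1+ LacZ+ cells had 2675, 6200.4 and 6741 CPM, and FLK1+ LacZ- cells had 2712, 5134 and 5803 CPM. The high values were thus the ENG+FDG+ libraries of replicates 2 and 3, which lay above all other libraries, while the ENG+FDG+ library of replicate 1 was among the lowest. The set was chosen as high in those replicate 2 and 3 libraries, so nothing is read from their place. With all 3 replicates the ranges of neighbouring groups in the order of means overlapped throughout.

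Neat1 had another pattern. Its CPM in replicates 1 to 3 was 12.3, 10.6 and 12.8 in ENG+FDG+ cells, 30.5, 10.9 and 11.5 in ENG-FDG+ cells and 10.3, 9.43 and 8.75 in ENG+FDG- cells. FLK1+ LacZ+ cells had 9.32, 2.60 and 1.64 CPM, and FLK1+ LacZ- cells had 14.7, 1.94 and 2.41 CPM. These rest on few reads: 16 to 26 counts in the 4 FLK1+ libraries of replicates 2 and 3, and 101 to 359 counts in the HEI libraries. In replicates 2 and 3 every HEI library lay above every FLK1+ library, whereas the FLK1+ libraries of replicate 1 overlapped the HEI range. How many of all genes lie apart in this way was not counted, so the separation is not read as particular to Neat1.

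Clk1 and Clk4 encode kinases that phosphorylate SR proteins, the splicing factors stored in speckles. Clk1 was at 101, 298 and 281 CPM in replicates 1 to 3 of ENG+FDG+ cells, against 84.6, 232 and 177 CPM in ENG-FDG+ cells and 87.4, 206 and 170 CPM in ENG+FDG- cells. In FLK1+ cells it was at 93.5, 213 and 219 CPM in the LacZ+ fraction and 155, 196 and 189 CPM in the LacZ- fraction. The replicate 2 and 3 libraries of ENG+FDG+ cells were again the highest of the 15. Clk4 was at 57.4, 134 and 125 CPM in ENG+FDG+ cells, and its other 12 libraries lay between 44.6 and 124 CPM. As for Malat1, the top place of these libraries goes with the choice of the set. The share of all genes placed like this was not counted, so nothing is read from it.

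Ccnl1 and Ccnl2 encode cyclins L1 and L2, speckle proteins that partner the CDK11 kinases. Ccnl1 averaged 117 ± 15.7 CPM in ENG+FDG+ cells, 95.9 ± 1.40 CPM in ENG-FDG+ cells and 97.9 ± 7.60 CPM in ENG+FDG- cells. It averaged 113 ± 18.1 CPM in FLK1+ LacZ+ and 112 ± 7.72 CPM in FLK1+ LacZ- cells (SD, n = 3 in each group). The 2 cyclins differed in their order over the groups. Ccnl2 averaged 107 ± 2.14, 88.2 ± 2.28 and 81.3 ± 5.37 CPM in ENG+FDG+, ENG-FDG+ and ENG+FDG- cells, against 126 ± 13.3 CPM in FLK1+ LacZ+ and 137 ± 50.02 CPM in FLK1+ LacZ- cells (SD, n = 3 in each group). Ccnl2 ran from 105 to 109 CPM in ENG+FDG+, 86.1 to 90.6 CPM in ENG-FDG+, 75.3 to 85.5 CPM in ENG+FDG- and 116 to 141 CPM in FLK1+ LacZ+ cells. The share of all genes whose groups lie apart like this was not counted, so nothing is read from it. ENG+FDG+ against ENG+FDG- is also the contrast that chose the set. FLK1+ LacZ- cells spread from 102 to 195 CPM, the top value being replicate 1.

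Arglu1 encodes an arginine- and glutamate-rich splicing modulator, Srsf5 an SR protein, Rbm39 a relative of U2AF that takes part in splicing and transcription, and Son a large scaffold protein of speckles. Arglu1 averaged 149.7 ± 3.85 CPM in ENG+FDG+ cells, 133 ± 9.43 CPM in ENG-FDG+ cells and 121 ± 11.1 CPM in ENG+FDG- cells (SD, n = 3 in each group). It averaged 142.5 ± 15.4 CPM in FLK1+ LacZ+ and 143.5 ± 32.5 CPM in FLK1+ LacZ- cells. Their replicate 1 libraries, at 159.6 and 181.0 CPM, lay above every ENG+FDG+ library. Srsf5 ranged from 524 to 793 CPM in ENG+FDG+ cells and from 504 to 867 CPM in ENG+FDG- cells, so that these 2 groups overlapped over nearly their whole range. Its highest means were in FLK1+ cells, at 825 CPM in the LacZ+ and 811 CPM in the LacZ- fraction, against 743 CPM in ENG-FDG+ cells. Rbm39 was at 187, 468 and 437 CPM in replicates 1 to 3 of ENG+FDG+ cells, against 203, 420.2 and 394 CPM in ENG+FDG- cells. Its FLK1+ values were higher within each replicate number: 307, 619 and 653 CPM in LacZ+ cells and 309.6, 580.2 and 595 CPM in LacZ- cells. Son was the flattest across groups, with means from 459 CPM in ENG+FDG- cells to 517 CPM in ENG-FDG+ cells.

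The comparison that chose the transcripts was ENG+FDG+ against ENG+FDG- HEI cells. Within replicate numbers, 7, 9 and 10 of the 10 transcripts were higher in ENG+FDG+ cells in replicates 1, 2 and 3, with median log2 differences of 0.10, 0.23 and 0.44. Over all 13662 genes 49.9%, 44.9% and 44.7% were higher, and the medians were -0.00067, -0.031 and -0.031. The exception in replicate 2 was Srsf5, with a log2 difference of -0.13, which goes against the description by which the set was drawn up. In replicate 1 the exceptions were Clk4 (-0.02), Rbm39 (-0.12) and Son (-0.01). The counts of the 10 transcripts were the same with RLE size factors and with total counts in place of TMM.

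Malat1 led the set in this comparison, with log2 differences of 0.08, 1.15 and 1.15 in replicates 1, 2 and 3. Clk1 followed with 0.21, 0.53 and 0.72. Ccnl2 was the most even over the replicates, at 0.39, 0.33 and 0.47, and Arglu1 had 0.17, 0.31 and 0.47. Fitted on replicates 2 and 3 alone, the log2 differences were 1.18 ± 0.18 for Malat1, 0.65 ± 0.11 for Clk1, 0.43 ± 0.09 for Ccnl2, 0.41 ± 0.08 for Arglu1 and 0.39 ± 0.21 for Neat1 (SE). Ccnl1 stood at 0.34 ± 0.08 and Clk4 at 0.29 ± 0.09, and the smallest values were 0.19 ± 0.06 for Son, 0.18 ± 0.07 for Rbm39 and 0.0086 ± 0.15 for Srsf5. With RLE size factors Srsf5 turned negative, and 9 of the 10 were positive. In the fit over all 3 replicates Malat1 had 1.01 ± 0.59 and Clk1 0.55 ± 0.48, while Srsf5 showed nearly no difference.

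Of all genes tested in this comparison, edgeR called 0% in the fit over 3 replicates (39 genes had an unadjusted p under 0.05) and 0.518% as higher in the fit of replicates 2 and 3 (69 of 13321). Nothing is read from this share for the 10 transcripts, which were picked on the same values. Within the same 2 fractions the ribosomal protein genes took 2.66% and 2.68% of counts in ENG+FDG+ libraries of replicates 2 and 3, against 3.05% and 2.84% in ENG+FDG- libraries. Of 80 ribosomal protein genes tested, 78 had a negative log2 difference in that fit under TMM, RLE and total-count scaling alike (median -0.17 under TMM). Over all 3 replicates 57 of the 80 had a positive difference. Smooth muscle and mesenchyme markers summed to 115 to 558 CPM in ENG+FDG+ libraries and 253 to 456 CPM in ENG+FDG- libraries. In the fit of replicates 2 and 3 the difference was negative for 6 of 6 of these markers (median -0.70) and for 5 of 6 early haematopoietic markers tested (median -0.55). The part of these in the differences above was not tested.

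**Figure D2:**
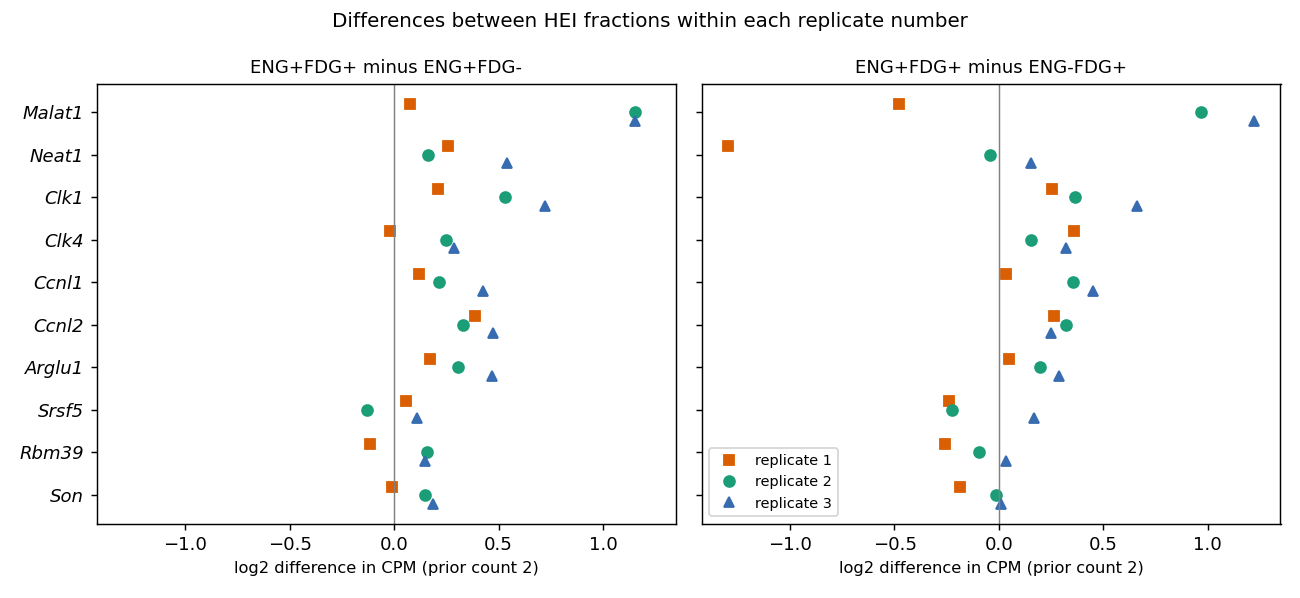
Log2 difference in CPM (prior count 2) of each transcript between HEI fractions within each replicate number, ENG+FDG+ minus ENG+FDG- on the left and ENG+FDG+ minus ENG-FDG+ on the right. The replicate 2 and 3 marks of Malat1 lie farthest to the right in both panels, and replicate 1 puts Malat1 at 0.08 on the left and at -0.48 on the right.

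ENG+FDG+ cells set against the other FDG+ fraction, ENG-FDG+, share their ENG+FDG+ libraries with that comparison, so the values are set side by side without a test. Malat1 had log2 differences of -0.48, 0.97 and 1.22 in replicates 1 to 3. The replicates thus split by sign. Clk1 had 0.25, 0.36 and 0.66, Ccnl1 had 0.03, 0.35 and 0.45, and Ccnl2 had 0.26, 0.32 and 0.25. Neat1 had -1.30, -0.04 and 0.15, the first of which reflects the ENG-FDG+ library of replicate 1 at 30.5 CPM. For Son, Rbm39 and Srsf5 the differences in replicates 2 and 3 lay between -0.23 and 0.17.

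Between ENG-FDG+ and ENG+FDG- cells the differences of Malat1 and Clk1 in replicates 2 and 3 were smaller. Malat1 had 0.56, 0.18 and -0.07 in replicates 1 to 3, and Clk1 had -0.05, 0.17 and 0.06. Neat1 had 1.56, 0.20 and 0.39, so that replicate 1 gave its largest difference here. Fitted on replicates 2 and 3, all 10 log2 differences lay between -0.12 for Ccnl1 and 0.27 for Neat1. In replicates 2 and 3, with 2 libraries a group, these 2 fractions were nearer each other in Malat1 and Clk1 than either was to ENG+FDG+ cells. Nothing is read from this, because the set was chosen as high in those ENG+FDG+ libraries. By the means of replicates 2 and 3, ENG-FDG+ cells were nearer ENG+FDG+ than ENG+FDG- cells for Son, Rbm39 and Neat1, and nearer ENG+FDG- cells for the others.

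These transcripts were also compared in libraries that played no part in choosing them, ENG-FDG+ HEI cells against FLK1+ LacZ+ cells. Stage, reporter construct and sorting differed together here and cannot be told apart. Neat1 was the transcript that differed most: it was higher in ENG-FDG+ cells by log2 1.69, 1.99 and 2.68 in replicates 1 to 3. Counts per gene do not separate its long form, the paraspeckle scaffold, from its other transcripts. Ccnl2 was lower in all 3 replicates (-0.64, -0.49 and -0.40), and so was Rbm39 (-0.46, -0.31 and -0.62). In the fit over all replicates, none of the 10 passed an adjusted p of 0.05 (edgeR's quasi-likelihood test, Benjamini-Hochberg adjusted over 13662 genes), where 14% of all genes were called. Neat1 had 1.94 ± 0.78 with an adjusted p of 0.132, Ccnl2 -0.52 ± 0.22 with 0.165 and Rbm39 -0.46 ± 0.45 with 0.614.

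The labels do not say that a replicate number pairs libraries. With the number as a block 3 of the 10 were called, where 41.5% of all genes were. Neat1 rose in ENG-FDG+ cells by log2 2.05 ± 0.49 (adjusted p = 0.0044), while Rbm39 fell by 0.46 ± 0.10 (adjusted p = 0.00208) and Ccnl2 fell by 0.51 ± 0.16 (adjusted p = 0.0179). In replicates 2 and 3 alone 4 were called, where 54.9% of genes were: Neat1 at 2.46 ± 0.26 (adjusted p = 1.31e-07), Rbm39 at -0.39 ± 0.07 (adjusted p = 0.000172), Ccnl2 at -0.38 ± 0.09 (adjusted p = 0.00122) and Ccnl1 at -0.30 ± 0.08 (adjusted p = 0.00581). That fit had 2 libraries a group, and its p-values measure only the narrow spread between replicates 2 and 3. DESeq2 over all replicates called Neat1 too (adjusted p = 0.0404). Left out singly, FLK1+ LacZ+ replicate 1 moved the Neat1 difference of the fit over all replicates to 3.05 (adjusted p = 0.0373), and ENG-FDG+ replicate 1 moved it to 1.32 (adjusted p = 0.322). A share of 3 or 4 in 10 is not above the share of all genes called in the same fits. Malat1, at -0.06 ± 0.24 in the block fit, and Son, at 0.06 ± 0.09, were not called in any of these fits.

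The shares that move with this comparison are large. The immediate early genes, a marker of stress and handling, summed to 990 to 2490 CPM in ENG-FDG+ libraries and 341 to 833 CPM in FLK1+ LacZ+ libraries. Smooth muscle and mesenchyme markers summed to 344 to 5045 CPM in ENG-FDG+ libraries and 139 to 220.04 CPM in FLK1+ LacZ+ libraries, the top value being replicate 1. The pluripotency markers Pou5f1, Nanog and Zfp42 summed to at most 0.170 CPM in ENG-FDG+ libraries and to 10.5 to 75.6 CPM in FLK1+ LacZ+ libraries. Their part in the Neat1, Ccnl2 and Rbm39 differences was not tested.

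The other fixed comparison that did not use the choosing contrast was FLK1+ LacZ+ against LacZ- cells, which differ by activity of the reporter. None of the 10 transcripts was called, where 0% of 13662 genes were called by edgeR. At an unadjusted p under 0.05 there were 170 genes, and DESeq2 called 8. In the fit of replicates 2 and 3 none of the 10 was called either, where 0.0601% of genes were. Over all replicates, Malat1 had a log2 difference of 0.19 ± 0.58 and Neat1 of -0.48 ± 0.77. Both differences were smaller than their SE. A missing call does not show that the levels were alike.

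Within replicate numbers, 1, 9 and 9 of the 10 transcripts were higher in LacZ+ than in LacZ- cells in replicates 1, 2 and 3, with medians of -0.17, 0.08 and 0.17. Of all 13662 genes 54.0%, 50.4% and 54.3% were higher, with medians of 0.045, 0.0019 and 0.026. For the 10 transcripts replicate 1 thus ran opposite to the other 2. With RLE size factors the counts were 0, 9 and 9, and with total counts 3, 9 and 8. Malat1 had -0.02, 0.27 and 0.22, Clk1 had -0.73, 0.12 and 0.21, and Ccnl2 had -0.46, 0.25 and 0.01. Endothelial markers summed to 630 to 747 CPM in LacZ+ and 385 to 780.08 CPM in LacZ- libraries. Early haematopoietic markers summed to 229 to 250.2 CPM in LacZ+ libraries and 162 to 201 CPM in LacZ- libraries, which did not overlap. The part of these markers in the differences was not tested.

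**Figure D3:**
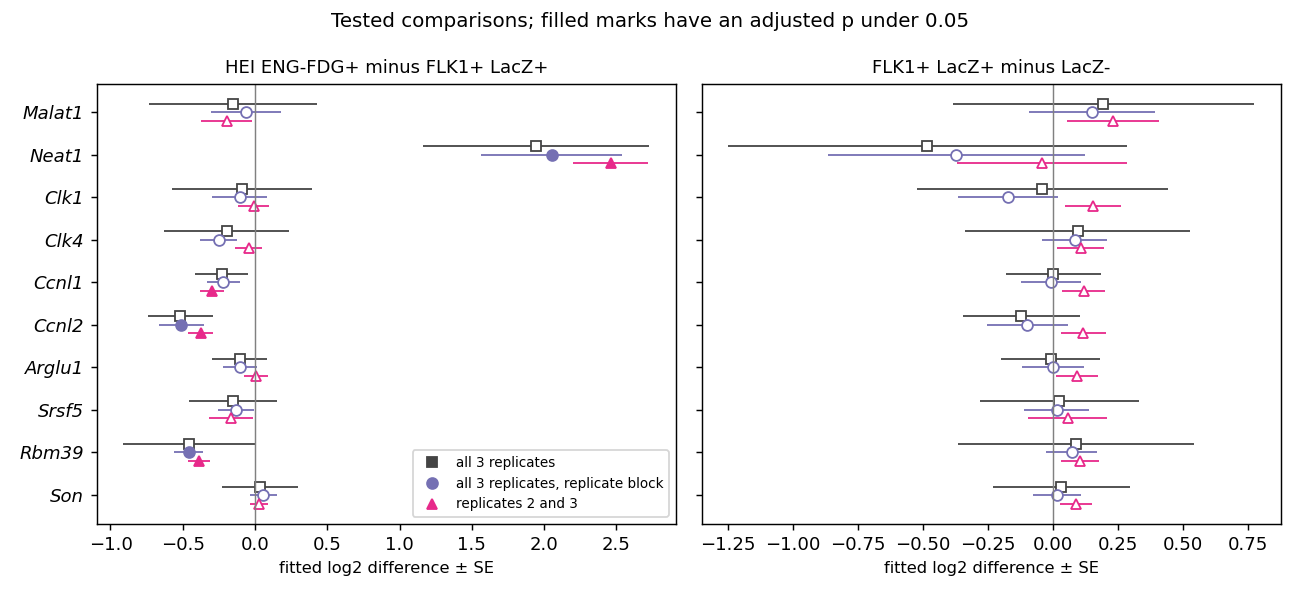
Fitted log2 difference ± SE of each transcript in the 2 tested comparisons, HEI ENG-FDG+ minus FLK1+ LacZ+ on the left and FLK1+ LacZ+ minus LacZ- on the right, from the fit of all 3 replicates (squares), the same with a replicate block (circles) and replicates 2 and 3 alone (triangles). Filled marks have an adjusted p under 0.05: Neat1, Ccnl2 and Rbm39 in the block fit, and these with Ccnl1 in replicates 2 and 3, all on the left.

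The set also differed between replicate numbers. Replicate 1 against replicates 2 and 3, with the group in the model, gave a call for all 10 transcripts, 7 lower and 3 higher in replicate 1, where 71.3% of all genes were called (32.2% lower and 39.1% higher). The libraries used in choosing the set are 4 of the 15 here, and all 4 stand on the side of replicates 2 and 3. The fitted differences, p-values and calls of the 10 include them and so are not free of the choice. The values in FLK1+ and ENG-FDG+ cells are the ones the choice did not touch. The test, here and for the lists below, counted libraries of one replicate number as independent, and whether they are is not known. Its p-values and the counts of groups thus do not measure a spread between replicate numbers. The labels do not say what replicate 1 shares, and the share of ribosomal protein counts moved with it. Its part was not tested.

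Malat1 was lower in replicate 1 by log2 1.26 ± 0.17 (2.39-fold; adjusted p = 1.01e-05), and lower in 5 of 5 groups: by differences of -2.27 in ENG+FDG+, -0.69 in ENG-FDG+ and -1.19 in ENG+FDG- cells, and of -1.27 and -1.01 in FLK1+ LacZ+ and LacZ- cells. Its fitted value and the ENG+FDG+ and ENG+FDG- differences hold libraries that chose the set, and the largest difference is among them. Rbm39 (-1.06 ± 0.07), Clk1 (-1.07 ± 0.14), Clk4 (-0.995 ± 0.09), Srsf5 (-0.56 ± 0.08) and Son (-0.48 ± 0.06) were also lower in 5 of 5 groups. Neat1 went the other way, at 1.34 ± 0.30 (adjusted p = 0.00099), higher in 5 of 5 groups. Malat1 and Neat1, whose genes lie next to each other, thus differed in sign between replicate 1 and the rest.

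The 3 weakest calls of this comparison were Ccnl1 (-0.18 ± 0.08, adjusted p = 0.0472), Ccnl2 (0.26 ± 0.10, adjusted p = 0.0292) and Arglu1 (0.21 ± 0.08, adjusted p = 0.0215). With RLE size factors Ccnl2 and Arglu1 were no longer called, and with total counts Ccnl1 was no longer called. Of 17 fits that left out 1 library or a whole replicate, 11 ended the call of Ccnl1, 6 that of Ccnl2 and 6 that of Arglu1. Without the FLK1+ LacZ- library of replicate 1, Ccnl2 stood at 0.098 and Arglu1 at 0.12. For Neat1 the replicate 1 difference was 2.08 in FLK1+ LacZ+ and 2.67 in FLK1+ LacZ- cells, but 0.08 in ENG+FDG+ and 0.17 in ENG+FDG- cells. The replicate 1 difference in HEI minus that in FLK1+ cells was called for Neat1 alone of the 10, where 4.25% of all genes were called.

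**Figure D4:**
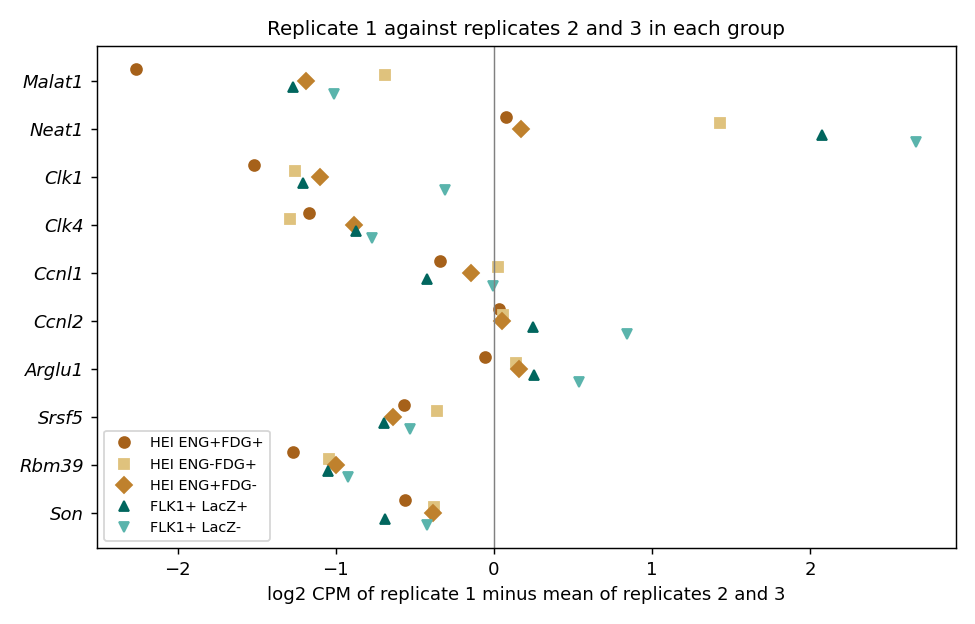
Log2 CPM of replicate 1 minus the mean of replicates 2 and 3 for each transcript, with 1 mark for each of the 5 groups. Malat1, Clk1, Clk4, Srsf5, Rbm39 and Son lie left of 0 in all groups, and Neat1 lies right of 0, farthest in the FLK1+ groups.

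Other genes of the same pathways were followed through lists. Of 14 other mRNAs known for detained or retained introns, 14 were called lower in replicate 1 (median -0.87, against 0.13 over all genes), where 32.2% of all genes were called lower and 39.1% higher, among them Mat2a, the S-adenosylmethionine synthetase subunit (-1.35 ± 0.08), and Hnrnph1, an RNA-binding protein (-1.02 ± 0.07). Of 12 further SR proteins, 9 were called lower and 2 higher, among them Srsf1 (-1.91 ± 0.09). Of 19 speckle and RS-domain proteins, 14 were called lower and 3 higher, among them Ppig (-2.41 ± 0.10) and Rbm25 (-1.56 ± 0.07). Of 9 splicing kinases, 6 were called lower and 2 higher, among them Cdk12 (-1.06 ± 0.06) on the lower side and Clk3 (0.82 ± 0.08) on the higher.

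Not all of these lists ran one way. Of 6 paraspeckle proteins, 4 were called lower, including Sfpq (-0.87 ± 0.06) and Nono (-0.96 ± 0.07), both required for Neat1 paraspeckles, and 1 higher, Rbm14 (0.996 ± 0.08). Of 5 U2AF and RBM39 partners tested, 4 were called higher, among them Puf60 (1.01 ± 0.07) and U2af2 (0.97 ± 0.07), and 1 lower, Sf3b1 (-0.99 ± 0.06). Of 7 other nuclear long non-coding RNAs, 3 were called lower, among them Tug1 (-1.13 ± 0.07), and 2 higher, Mirg (1.87 ± 0.28) and Meg3 (1.59 ± 0.35). Of 10 immediate early genes, 9 were called higher in replicate 1, where 39.1% of all genes were, among them Ier2 (2.36 ± 0.09) and Junb (3.21 ± 0.14), and of 80 ribosomal protein genes 77 were called higher (median 1.68). The counts of called genes were the same under RLE and total-count scaling, except that 7 splicing kinases were called lower under RLE.

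In ENG-FDG+ against FLK1+ LacZ+ cells few list genes passed in the fit over all replicates, where 14% of all genes were called. Srsf9 was the 1 SR protein called of 12, lower in ENG-FDG+ cells (-0.85 ± 0.22, adjusted p = 0.0214). Firre (-1.16 ± 0.25) and Rian (-1.66 ± 0.36) were the 2 of 7 other nuclear long non-coding RNAs called, both lower, and Klf6 (1.58 ± 0.33) was the 1 of 10 immediate early genes called, and higher. No splicing kinase, speckle protein, paraspeckle protein, U2AF partner or other detained-intron mRNA was called. With the replicate block 7 SR proteins, 4 splicing kinases, 9 speckle proteins, 5 detained-intron mRNAs, 4 long non-coding RNAs, 2 paraspeckle proteins and 1 U2AF partner fell, while 1 speckle protein, 2 detained-intron mRNAs and 10 of 10 immediate early genes rose. In that fit 21.9% of all genes were lower and 19.6% higher. In the fit of replicates 2 and 3, where 54.9% of all genes were called, 9 SR proteins, 5 splicing kinases, 14 speckle proteins, 7 detained-intron mRNAs, 5 long non-coding RNAs, 3 paraspeckle proteins and 1 U2AF partner fell, while 1 splicing kinase, 1 speckle protein, 2 detained-intron mRNAs, 1 long non-coding RNA and 10 immediate early genes rose. Early haematopoietic markers summed to 429 to 570 CPM in ENG-FDG+ libraries and 229 to 250.2 CPM in FLK1+ LacZ+ libraries, and their part in these differences was not tested.

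The lists are described without a test in ENG+FDG+ against ENG+FDG- cells, because they were made with earlier results of this contrast known. In the fit of replicates 2 and 3 the log2 difference was positive for 14 of 19 speckle and RS-domain proteins (median 0.098), 11 of 14 detained-intron mRNAs (0.089), 8 of 12 SR proteins (0.065) and 6 of 9 splicing kinases (0.024), against a median of -0.0026 over all genes. It was positive for 6 of 7 other nuclear long non-coding RNAs (0.26), 4 of 5 U2AF partners (0.11), 3 of 6 paraspeckle proteins (0.018) and 6 of 10 immediate early genes (0.038). Values of single genes were 0.99 ± 0.13 for Meg3 and 0.54 ± 0.12 for Firre, both long non-coding RNAs, 0.39 ± 0.07 for Ogt, the O-GlcNAc transferase, and 0.35 ± 0.07 for Pnisr, an RS-domain protein (SE, 2 libraries a group), which were chosen after their values were seen. With RLE size factors the positive counts were 13 speckle proteins, 10 detained-intron mRNAs and 5 splicing kinases, and with total counts 17 speckle proteins and 7 immediate early genes, with the other lists as under TMM.

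The genes whose profile over the 15 libraries was most like the mean profile of the 10 transcripts were ranked by the root mean square difference of centred log2 CPM, among 8953 genes with a mean of at least 10 CPM. The 6 nearest were Rbm5 (0.13), Ddx17 (0.13), Kdm2a (0.14), Tnrc6a (0.15), Zwint (0.15) and Fbxw2 (0.15), against a median of 0.58 over all genes ranked. Of the 10 transcripts, Son (0.15) and Ccnl1 (0.17) were nearest to their shared mean, and Neat1 (1.21) was farthest, with 90.6% of the other genes nearer to it. Malat1 was at 0.50 and Rbm39 at 0.43. The 10 transcripts did not share one profile in these libraries.

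Promoters were read for those members with an entry in the RefSeq promoter table of GRCm38.p6 (250 bases before to 50 after the start), which held 8 promoters of 7 of the 10 genes. The Malat1 promoter is printed because Malat1 had the largest difference of the 10 between ENG+FDG+ cells and either other HEI fraction in replicates 2 and 3. It is 300 bases on the minus strand, chr19:5802623-5802922, with the CRE core TGACGT, the motif bound by CREB and ATF proteins, in capitals wherever it was found on either strand.
Malat1 promoter: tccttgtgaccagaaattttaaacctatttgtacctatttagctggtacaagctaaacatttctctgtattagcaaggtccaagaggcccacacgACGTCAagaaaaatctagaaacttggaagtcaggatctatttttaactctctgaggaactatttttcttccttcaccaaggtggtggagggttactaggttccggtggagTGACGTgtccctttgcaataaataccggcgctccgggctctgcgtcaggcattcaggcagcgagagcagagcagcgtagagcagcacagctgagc

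The motifs searched on both strands were TGACGT, the ETS motif CCGGAAGT, the GATA motif AGATAA and TATAAA. The CRE core was in 5 of the 8 promoters, those of Malat1, Clk4, Ccnl1, Ccnl2 and Son, and in 7.51% of 32851 promoters in the table. The ETS motif was in 1 of the 8 (Srsf5; 3.89% of all promoters), the GATA motif in 1 (Rbm39; 11.2%) and TATAAA in none (13.6%). The windows below show the core of the other 4 genes in capitals with 10 bases on each side, and its first base lies at -18, -59, -65 and -130 from the annotated start in the order printed.
Ccnl1: gtcggcgtggTGACGTcagggcggaa
Ccnl2: gagacagcggTGACGTtcagccaatg
Clk4: ccgccgtcccTGACGTcacagacccc
Son: cgcggcgcaaACGTCAgcagctctac
In Ccnl1 and Clk4 the cores of both strands overlap, so the full palindrome is present. A match is a description of the letters in these windows and not a site of binding.

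The mRNA genes lie at chr1:58410189-58424066 (Clk1, minus strand), chr11:51261730-51281766 (Clk4, plus), chr3:65946151-65958249 (Ccnl1, minus), chr4:155812489-155824543 (Ccnl2, plus), chr8:8665075-8690521 (Arglu1, minus), chr12:80945504-80950507 (Srsf5, plus), chr2:156147239-156180238 (Rbm39, minus) and chr16:91647506-91679221 (Son, plus) in GRCm38. Genes on the opposite strand overlap Son (Donson, over 2414 bases), Clk4 (BC049762, over 1317 bases), Ccnl1 (Gm37305, over 492 bases) and Malat1 (Gm37376, over 453 bases). How the counting treated strand is not given in the sources used here, so reads from these overlaps cannot be assigned to one gene with certainty.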

How the data were processed

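The values are raw read counts per gene as deposited by the authors in 1 table of 15 libraries. Per the labels' protocols, RNA from the sorted cells went through a Nugen amplification before Illumina library construction. The submitters' processing notes name STAR 2.4.0, HTSeq 0.6.1 and build mm10, and no role or setting. Of 24061 lines, 27 whose symbol had been turned into a date were left out, and 24034 were used.

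Counts were tested in R 4.3.3 with edgeR 4.0.16 (quasi-likelihood, robust, TMM scaling, filterByExpr, 13662 genes, Benjamini-Hochberg adjustment, threshold 0.05), with the 5 groups sharing 1 spread; DESeq2 1.42.0 was an alternative, and limma 3.58.1 was loaded by edgeR. The model was checked on simulated data. At the spread over all replicates it missed most changed genes. At that of replicates 2 and 3 it recovered them, with some false calls. The fit of replicates 2 and 3 alone, with 2 libraries a group, was not simulated, so the check does not cover that fit. Log2 differences within a replicate number used a prior count of 2. The labels do not say that replicates were separate cultures, so p-values measure the spread between these libraries. Deviations from the group means correlated between libraries of the same replicate number (r = 0.565 to 0.867, 0.474 to 0.663 and 0.435 to 0.679 over the 10 pairs of replicates 1, 2 and 3). Such deviations cancel out within a group, so a shift of replicate 1 alone gives positive r in replicates 2 and 3. Those r therefore cannot show that the numbers are pairs, and the replicate block was an alternative fit. The biological coefficient of variation was 0.477 in the fit over all replicates, 0.199 with the replicate block and 0.0761 in replicates 2 and 3. No 2 libraries of the same group agreed within sampling noise (chi-square per gene at least 3.63).

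The 10 transcripts and all gene lists were chosen with earlier results of these data known. Named from each list are up to 4 called genes of smallest p, or the 2 of highest mean CPM; the 6 most alike genes and the checks Rn45s, Eng and Kdr are named too. Lengths and coordinates come from GENCODE M21. Mitochondrially encoded genes and Rbm23, planned for the lists, were not analysed here.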

Additional observations from a re-analysis of the deposited data

Results flagged for a closer look

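Neat1 was singled out because the difference between replicate 1 and replicates 2 and 3 was not the same in HEI and FLK1+ cells. The replicate 1 difference in HEI cells minus that in FLK1+ cells was -1.85 ± 0.40 on the log2 scale (edgeR interaction term, adjusted p = 0.0206), where 4.25% of all genes were called, and this test was added after the Neat1 values were seen. In replicate 1 the HEI libraries had 12.3, 30.5 and 10.3 CPM in ENG+FDG+, ENG-FDG+ and ENG+FDG- cells, and in FLK1+ cells it was 9.32 CPM (LacZ+) and 14.7 CPM (LacZ-). The corresponding means of replicates 2 and 3 were 11.7, 11.2 and 9.09 CPM in the HEI groups, and 2.12 and 2.17 CPM in FLK1+ LacZ+ and LacZ- cells. Leaving out 1 library at a time, the difference ranged from -2.27 to -1.52, and the call was lost without FLK1+ LacZ- replicate 1 (-1.52, adjusted p = 0.136), without HEI ENG+FDG+ replicate 1 (-1.59, adjusted p = 0.0522), without FLK1+ LacZ- replicate 2 (-1.72, adjusted p = 0.0551) and without FLK1+ LacZ+ replicate 3 (-1.78, adjusted p = 0.0516). None of the other 9 transcripts was called for this difference. The test counted libraries of one replicate number as independent, which is not known, and it includes the libraries that chose the set. Groups of 3 libraries were not examined for single outlying libraries.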

How the results depend on the processing

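The choice of replicates mattered most. In ENG-FDG+ against FLK1+ LacZ+ cells 1909 genes were called over all replicates, 557 with the compared groups alone, 5676 with the replicate block and 7310 in replicates 2 and 3. In FLK1+ LacZ+ against LacZ- cells 0 genes were called, 8 in replicates 2 and 3 and 8 with DESeq2, and 0 to 1 with 1 library left out. The block changed no other call of the 10 transcripts. With 1 library left out, the median of the 10 ranged from -0.085 to 0.22 in LacZ+ against LacZ- cells, from -0.38 to 0.014 in ENG-FDG+ against FLK1+ LacZ+ cells and from -0.085 to 0.26 in ENG-FDG+ against ENG+FDG- cells. That last median was 0.127 with all libraries, 0.086 with total counts and 0.082 in replicates 2 and 3.

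Signs of uncalled values turned. In LacZ+ against LacZ- cells, Ccnl1 was at -0.0032 with RLE, -0.030 with total counts, -0.020 with these groups alone, -0.0084 with the block and -0.0043 with DESeq2. With total counts Srsf5 was at -0.0098 and Son at -0.0010. Arglu1 was at 0.00027 with the block. In replicates 2 and 3 Arglu1 was at 0.093, Clk1 at 0.15 and Ccnl2 at 0.12, and Arglu1 was at 0.0063 in ENG-FDG+ against FLK1+ LacZ+ cells. With 1 library left out, the LacZ+ against LacZ- difference ranged from -0.073 to 0.51 for Malat1, -1.59 to 1.07 for Neat1, -0.23 to 0.26 for Clk1, -0.12 to 0.33 for Clk4, -0.077 to 0.13 for Ccnl1, -0.30 to 0.21 for Ccnl2, -0.10 to 0.19 for Arglu1, -0.18 to 0.22 for Srsf5, -0.16 to 0.36 for Rbm39 and -0.097 to 0.23 for Son. In ENG-FDG+ against FLK1+ LacZ+ cells it ranged from -0.47 to 0.081 for Malat1, -0.42 to 0.21 for Clk1, -0.48 to 0.12 for Clk4, -0.35 to 0.049 for Srsf5 and -0.16 to 0.16 for Son. The cause of these changes was not tested.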
